A study of Mus musculus with 6 samples.

Results

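The genes described here encode the machinery by which the endoplasmic reticulum (ER) takes in, folds and checks proteins, together with the sensors and factors of the unfolded protein response. They were chosen by symbol: 40 genes, of which 39 were read by at least 1 probe set naming no other gene, among 18193 such genes on the array. All 39 passed the filter on low signal and were tested among 11696 genes. The wild-type mean of Trib3 lay below the cutoff, which was set with the TAK1-deficient arrays included. With the filter set on the wild-type arrays alone, all 39 were still tested. The remaining gene, Sec61g, shared its probe set with 2 other genes and entered no test. In all, 96 probe sets read the 39 genes, of 45101 on the array.

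RNA came from bone marrow B cells of C57BL/6 mice of both sexes, 8 to 12 weeks old. Cells that carried DX5, CD11b, Gr1, Ter119 or CD3 had been removed, and the rest were sorted by surface light chain. There were 3 groups of 2 arrays: TAK1-deficient Igκ+ cells (genotype mb-1/TAK1f/f), wild-type Igκ+ cells and wild-type Igλ+ cells (both mb-1/TAK1+/+). TAK1, the product of Map3k7, is a kinase upstream of NF-κB and MAP kinases. All 3 groups carry mb-1 in their genotype; mb-1 is an older name of Cd79a, a gene of the B lineage, and the labels do not say how it was used, how far TAK1 was lost, or whether replicates came from separate animals. The p-values below therefore measure the spread between these arrays, which may be technical.

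In the ER, Hsp70 and Hsp90 chaperones, lectins and disulfide isomerases fold new chains that enter through the Sec61 channel, and chains that fail are sent to the cytosol for degradation. Unfolded protein activates the sensors IRE1 (encoded by Ern1), PERK (Eif2ak3) and ATF6. Transcription of chaperone genes is raised through XBP1 and ATF6, while PERK changes translation and raises that of the transcription factor ATF4. B cells carry this machinery for membrane immunoglobulin, and enlarge it when they become antibody-secreting plasma cells.

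A sequence shared by many of these genes is the ER stress response element (ERSE), CCAAT and CCACG separated by 9 bases of any kind, which is bound by the factor NF-Y together with ATF6 or XBP1. It is shown because it is a known binding site of the factors named above. RefSeq promoter windows (GRCm38.p6, 250 bases before to 50 after the annotated start) were at hand for 33 of the 40 genes. Searched on both strands, an ERSE was present in 9 of the 33 (27.3%), with Hsp90b1 holding a pair, and in 39 of all 32851 windows (0.119%). In the following windows, written 5′ to 3′ on the strand of the gene, the capitals mark CCAAT and CCACG, and the element reads CGTGG and then ATTGG where it lies on the opposite strand.
Hspa5: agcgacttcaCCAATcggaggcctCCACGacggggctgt
Dnajc3: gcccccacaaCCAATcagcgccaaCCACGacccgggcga
Creld2: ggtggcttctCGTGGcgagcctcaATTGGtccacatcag
Pdia6: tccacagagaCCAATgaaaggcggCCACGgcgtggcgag
Ero1b: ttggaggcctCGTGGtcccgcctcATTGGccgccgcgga
Calr: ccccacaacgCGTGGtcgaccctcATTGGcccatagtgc
Canx: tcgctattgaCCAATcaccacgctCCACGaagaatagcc
Syvn1: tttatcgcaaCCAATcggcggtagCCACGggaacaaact
These windows lie at chr2:34772015-34772053 (Hspa5), chr14:118937817-118937855 (Dnajc3), chr15:88819510-88819548 (Creld2), chr12:17266481-17266519 (Pdia6), chr13:12565672-12565710 (Ero1b), chr8:84847065-84847103 (Calr, minus strand), chr11:50325790-50325828 (Canx, minus strand) and chr19:6046522-6046560 (Syvn1). Each lies upstream of the annotated start of its gene.

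By role, an ERSE was matched in 4 of 7 chaperone genes and partners with a window (Hspa5, Hsp90b1, Dnajc3, Creld2), in both lectin chaperone genes, in 2 of 5 genes of disulfide formation (Pdia6, Ero1b) and in 1 of 7 degradation genes (Syvn1). It was matched in 0 of 6 translocation genes and 0 of 6 sensor and signalling genes. A second form of the element, ATTGG and CCACG separated by 1 base, was found in Herpud1 (ATTGGGCCACG, chr8:94386377-94386387) and in Dnajb11 (ATTGGCCCACG, chr16:22857852-22857862, just after the annotated start), against 12 of all windows (0.0365%). Both forms hold CCACG and could overlap, but no gene here held both. The core of the UPR element, TGACG followed directly by TGG, was found in 0 of the 33 genes and 222 windows (0.676%), and the amino acid response element, TGATG followed by CAA or CAT, in Herpud1 alone among the 33 and in 473 windows (1.44%). A match is a description of letters, and its absence says only that they are not in this window.

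**Figure D1:**
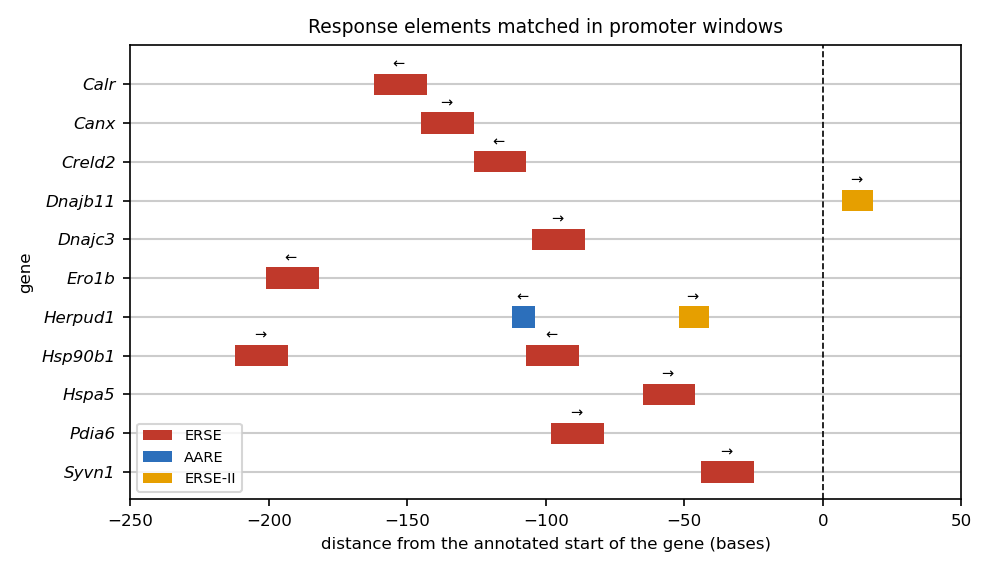
Position of each match in the promoter windows of the 11 genes that held an ERSE or an ERSE-II, in bases from the annotated start (dashed line); arrows give the strand relative to the gene, and the blue box is the amino acid response element match of Herpud1. All 10 ERSE matches lie upstream of the start.

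Each array was scaled to one trimmed mean signal (500), yet the TAK1-deficient arrays stood apart in their controls. Spiked hybridization controls had a geometric mean of 47043 and 41197 on these arrays and 3985 to 4608 on the wild-type arrays, and the median signal over every probe set was 324 and 323 against 44.9 to 59.1. For Actb, the 3′ probe set exceeded the 5′ one by a ratio of 6.28 and 4.18 against 1.25 to 1.58. Pearson's r of log2 signals across probe sets was 0.920 between the TAK1-deficient arrays, 0.435 to 0.512 between them and wild-type arrays, and 0.962 to 0.984 among wild-type arrays. Genotype and these array properties cannot be told apart in this design. Map3k7 itself read 346 and 599 on the TAK1-deficient, 2196 and 1805 on the wild-type Igκ+ and 2149 and 1957 on the wild-type Igλ+ ones; where its probes lie relative to the deleted part is not known, so this checks nothing. Of 8 B cell markers, 7 were measured, and none was at the level of unspiked controls (their 95th percentile) on any array.

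Because of that difference, each comparison of genotypes is given as deposited and with a level adjustment, in which a lowess curve was fitted over all probe sets to each TAK1-deficient array, as a function of mean wild-type level, and subtracted. The median log2 difference of all genes tested was -0.70 as deposited, -1.02 with quantile normalization, -3.08 with median centring, -3.94 with scaling on the spiked controls and 0.03 with the level adjustment. All differences are on the log2(signal + 16) scale, which understates those of dim genes.

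The first comparison set the genotypes side by side at the same light chain. In TAK1-deficient Igκ+ cells the ER folding and stress genes were lower almost throughout. Of 39 tested, 37 fell and 2 rose (limma, Benjamini-Hochberg adjusted p under 0.05), where 49.8% of all genes fell and 26.1% rose; the 2 that rose, Pdia4 and Trib3, turned negative with quantile normalization, median centring and spike-in scaling, and Trib3 also with the level adjustment described above. The median difference was -1.55, against -0.70 for all genes. Quantile normalization left 31 that fell (57.5% of all genes) and median centring and spike-in scaling 39 each (77.9% and 81.5%), with 0 that rose under any of them (18.5%, 11.5% and 8.34%). In 27 of the 39 the fall was at least 2-fold in all 4 pairings of arrays, which held for 33% of all genes, and in 1, Trib3, the rise was (22.2%). Signals in TAK1-deficient cells ranged from 9.63% (Pdia3) to 337% (Trib3) of those in wild-type Igκ+ cells, with a median of 33.8%. In bulk RNA, fewer cells of a type and less RNA per cell cannot be told apart.

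These counts have to be read against the level of the genes, since bright probe sets were lower as a whole. Among all single-gene probe sets with a mean wild-type signal of 1000 to 3000, 94.4% were lower on the TAK1-deficient arrays, as were 27 of the 27 probe sets of the genes described here. From 3000 upward the shares were 93.2% and 24 of 24, and below 100 they turned, with 96.9% of all and 13 of 14 probe sets of these genes higher. Over their 96 probe sets, Pearson's r of log2 wild-type level with log2 difference was -0.837, given as a description, since probe sets share arrays and genes. These shares count signs, without a threshold. By sign 37 of the 39 genes (94.9%) were also lower, which is close to the shares of all probe sets from 1000 upward. The share of all genes passing the threshold at these levels was not computed.

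With the level adjustment 14 of the 39 fell and 2 rose (Ero1b and Sel1l), against 18% and 24.7% of all genes, and 23 did not pass. The median was then -0.39, against 0.03 for all genes. The 14 were Pdia3, Pdia6, P4hb, Calr, Creld2, Herpud1, Edem2, Derl1, Derl2, Ssr1, Ssr2, Ssr3, Ern1 and Eif2ak3. They were also the 14 whose call was kept in all 19 alternatives tried. The level adjustment was 1 of those 19, and calls were counted on 1 probe set per gene. Of the 14, Pdia3, Pdia6, Edem2, Ern1, Eif2ak3 and Ssr1 also had a probe set of opposite sign as deposited. With the level adjustment those of Pdia3 (0.64), Pdia6 (1.63) and Edem2 (1.88) stayed positive, and that of Eif2ak3 did not (-0.26). Differences were negative under all 5 scalings for 29 genes, and for the other 10 (Hspa5, Dnajb9, Dnajb11, Pdia4, Ero1b, Sel1l, Syvn1, Edem1, Ddit3 and Trib3) the sign depended on the scaling.

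**Figure D2:**
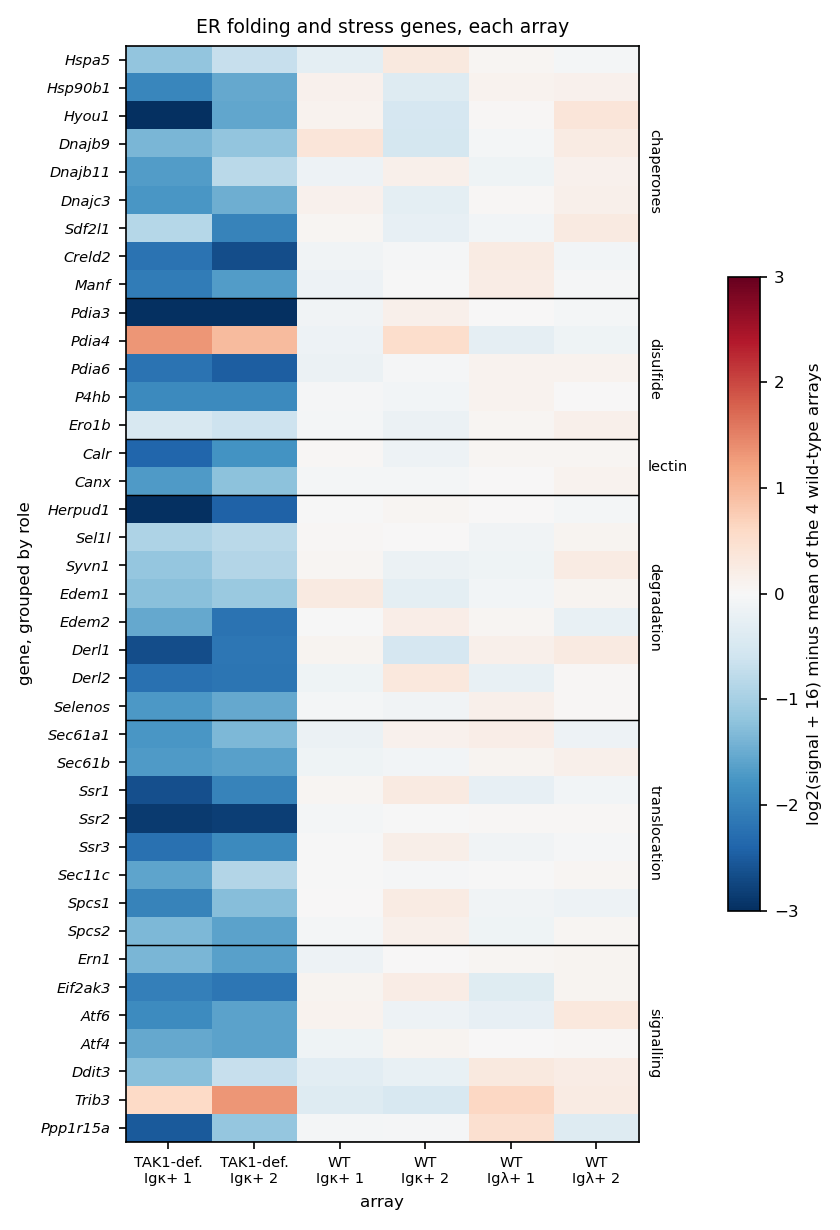
Log2(signal + 16) of the 39 genes on each array minus the mean of the 4 wild-type arrays, grouped by role; blue is lower and red higher. The TAK1-deficient columns are blue for 37 genes and red for Pdia4 and Trib3, and the 4 wild-type columns are pale.

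**Figure D3:**
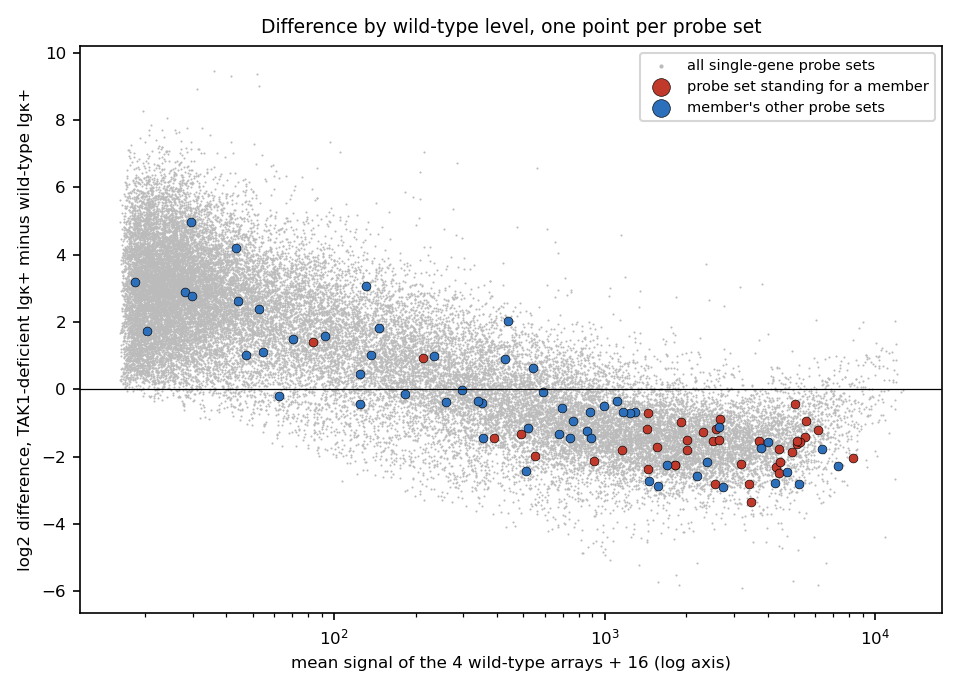
Log2 difference between TAK1-deficient and wild-type Igκ+ cells against mean wild-type signal plus 16 (log axis), with 1 grey point per single-gene probe set, red for the probe set that stands for each of the 39 genes and blue for their other probe sets. The cloud slopes from higher to lower with rising level, and the probe sets of the ER genes lie along it, with Pearson's r of -0.837 over the 96.

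Among the chaperones and their partners, all 9 tested fell, with a median difference of -1.51, where 49.8% of all genes fell. As given above, bright probe sets were lower as a whole. Creld2, a secreted ER protein induced by ER stress, had signals of 294 and 211 on the TAK1-deficient arrays, 1319 and 1379 on the wild-type Igκ+ arrays and 1697 and 1334 on the wild-type Igλ+ arrays. Both TAK1-deficient arrays lay far below the other 4, at 18.7% of wild-type Igκ+ (log2 difference -2.36 ± 0.26 SE; limma, Benjamini-Hochberg adjusted p = 6.93e-05). Hyou1, a large Hsp70 relative that releases nucleotide from BiP, read 86.4 and 287 on the TAK1-deficient arrays, 946 and 607 on the wild-type Igκ+ arrays and 892 and 1134 on the wild-type Igλ+ arrays. It fell by 2.14 on the log2 scale, with a gap between its TAK1-deficient replicates wider than that among the wild-type arrays. Hsp90b1, the Hsp90 of the ER and a chaperone of Toll-like receptors and integrins, read 1301 and 1750.4 on the TAK1-deficient arrays, 5573 and 3879 on the wild-type Igκ+ arrays and 5484 and 5568 on the wild-type Igλ+ arrays (log2 difference -1.61 ± 0.21).

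Hspa5, which encodes BiP, the central Hsp70 of the ER lumen and the protein that holds the sensors inactive, fell less. Its signals were 2399.6 and 3383 on the TAK1-deficient arrays, 4462 and 6727 on the wild-type Igκ+ arrays and 5634 and 5199 on the wild-type Igλ+ arrays, so the groups did not overlap, and the TAK1-deficient mean was 51.7% of wild-type Igκ+ (log2 difference -0.94 ± 0.23; limma, Benjamini-Hochberg adjusted p = 0.00569). Quantile normalization ended that call (-0.29), and the level adjustment turned its sign (0.24, adjusted p = 0.376). Another Hspa5 probe set, brighter in wild-type cells (mean 6354 against 5505), did not share this. Its difference was -1.78, and -0.68 with the level adjustment. The remaining Hspa5 probe set was dim (wild-type mean 46.3) and had -0.21. Dnajb9, a BiP partner that feeds back on IRE1, read 959 and 1085 on the TAK1-deficient arrays, 3212 and 1711 on the wild-type Igκ+ arrays and 2373 and 2946 on the wild-type Igλ+ arrays (log2 difference -1.19). Its wild-type Igκ+ replicates lay further apart, as a ratio, than the lower of them and the higher TAK1-deficient array. Sdf2l1, a partner of BiP's cofactors, read 254 and 105 on the TAK1-deficient against 488 and 396 on the wild-type Igκ+ arrays. Its fall, -1.34, lost the threshold when TAK1-deficient replicate 2 (-0.76, adjusted p = 0.125) was left out, and without either wild-type Igκ+ replicate (adjusted p = 0.102 and 0.0540). The other 3, Dnajb11, Dnajc3 and Manf, fell by 1.25 to 1.80 on the log2 scale. With the level adjustment only Creld2 of the 9 still fell (-1.03, adjusted p = 0.0145), where 18% of all genes did, and the median was -0.34.

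Of the 5 genes of disulfide formation 4 fell and 1 rose, where 49.8% and 26.1% of all genes did. Pdia3, whose product works with calreticulin and calnexin on glycoproteins, showed the largest fall of the 39. Its signals were 401 and 276 on the TAK1-deficient arrays, 3225 and 3813 on the wild-type Igκ+ arrays and 3480.1 and 3291 on the wild-type Igλ+ arrays. Both TAK1-deficient arrays lay far below all others. The difference was -3.33 ± 0.22 (SE; limma, Benjamini-Hochberg adjusted p = 6.47e-06), and -1.92 with the level adjustment (adjusted p = 0.000603). Pdia6, another isomerase and a partner of BiP, read 373 and 308 on the TAK1-deficient arrays, 1593 and 1736 on the wild-type Igκ+ arrays and 1940.0 and 1918 on the wild-type Igλ+ arrays and fell by 2.24. P4hb, the classical protein disulfide isomerase, read 1294 and 1288 on the TAK1-deficient against 4731 and 4636 on the wild-type Igκ+ arrays and fell by 1.85, with replicates that differed by little in either group.

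Pdia4, an isomerase of the same family, went the other way as deposited. It read 506 and 384 on the TAK1-deficient arrays, 173 and 284 on the wild-type Igκ+ arrays and 157 and 176 on the wild-type Igλ+ arrays. Its TAK1-deficient arrays were the highest, and its wild-type Igκ+ replicates lay further apart than the Igλ+ ones. The rise of 0.94 ± 0.37 was near the threshold (limma, Benjamini-Hochberg adjusted p = 0.0438), and was lost when TAK1-deficient replicate 1 or 2 was left out (adjusted p = 0.198 and 0.0649), and likewise wild-type Igκ+ replicate 1 (0.230). With the title number as a block its adjusted p was 0.0536. Ero1b (older symbol Ero1lb), the oxidase that renews the isomerases, had the smallest difference of the 39, -0.44. It read 3562 and 3275 on the TAK1-deficient arrays, 4836 and 4472 on the wild-type Igκ+ arrays and 5196 and 5617 on the wild-type Igλ+ arrays. Level adjustment turned this to a rise of 0.78 (adjusted p = 0.00346), and its fall as deposited was lost without TAK1-deficient replicate 2 (adjusted p = 0.0826) or wild-type Igκ+ replicate 1 (0.0700).

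Both lectin chaperones, which hold glycoproteins during folding, fell, as did 49.8% of all genes. Calr, for calreticulin, read 1580.3 and 2374 on the TAK1-deficient arrays, 8415 and 7470.5 on the wild-type Igκ+ arrays and 8639 and 8529.9 on the wild-type Igλ+ arrays (log2 difference -2.02 ± 0.19; limma, Benjamini-Hochberg adjusted p = 3.63e-05). The highest of the 4 wild-type signals was 1.16 times the lowest, and the fall was kept with the level adjustment (-1.08, adjusted p = 0.00127). Canx, for the membrane-bound calnexin, read 1678 and 2309 on the TAK1-deficient arrays, 5255 and 5216 on the wild-type Igκ+ arrays and 5514 and 5916 on the wild-type Igλ+ arrays and fell by 1.40. It did not pass with the level adjustment (-0.23, adjusted p = 0.244).

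All 8 genes of ER-associated degradation fell, with a median of -1.76, where 49.8% of all genes fell. Herpud1, a membrane scaffold of the degradation complex, had the second largest fall of the 39, with signals of 356 and 622 on the TAK1-deficient arrays, 3336 and 3511 on the wild-type Igκ+ arrays and 3443 and 3270.0 on the wild-type Igλ+ arrays. Its difference was -2.82 ± 0.25 (SE; limma, Benjamini-Hochberg adjusted p = 2.55e-05), or -1.40 with the level adjustment (adjusted p = 0.00184), and the highest of its wild-type signals was 1.07 times the lowest. Derl1 and Derl2, membrane proteins of the exit path, read 474 and 676 on the TAK1-deficient against 3288 and 2179.9 on the wild-type Igκ+ arrays and 889 and 916 on the TAK1-deficient against 3900.0 and 5288 on the wild-type Igκ+ arrays. They fell by 2.21 and 2.31, and both kept their call with the level adjustment. Another Derl1 probe set (wild-type mean 1093) did not share this, with -0.34, and 0.82 with the level adjustment. The remaining Derl1 probe sets had -2.73 and -2.44, and -1.40 and -1.99 with the level adjustment.

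Sel1l and Syvn1, which together form the main ubiquitin ligase of this pathway, fell least in the group. Sel1l read 1393 and 1496 on the TAK1-deficient arrays, 2723 and 2652 on the wild-type Igκ+ arrays and 2445 and 2786 on the wild-type Igλ+ arrays (log2 difference -0.89). Syvn1 read 834 and 1024 on the TAK1-deficient against 1969 and 1660.2 on the wild-type Igκ+ arrays (log2 difference -0.96). In both the groups did not overlap, quantile normalization ended the call, and the level adjustment turned the sign, to 0.60 for Sel1l (adjusted p = 0.015) and 0.49 for Syvn1 (adjusted p = 0.0865). Edem1 and Edem2, which mark glycoproteins for disposal, fell by 1.17 and 1.97. Only Edem2 did so with the level adjustment (-1.45, adjusted p = 0.0118). The other Edem1 probe set, brighter in wild-type cells (mean 1683 against 1417), had -2.25, and -0.85 with the level adjustment. Selenos, which links the exit path to the ATPase VCP, fell by 1.54.

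All 8 translocation and signal peptide genes tested fell, with a median of -1.66, and 7 of them by at least 2-fold in all 4 pairings. Of all genes, 49.8% fell and 33% did so by at least 2-fold in all pairings, and bright probe sets were lower as a whole. On the probe sets that stand for the genes, the translocon-associated protein genes stood lowest. Ssr2 read 332 and 341 on the TAK1-deficient arrays, 2435 and 2495 on the wild-type Igκ+ arrays and 2613 and 2589 on the wild-type Igλ+ arrays (log2 difference -2.81 ± 0.18; limma, Benjamini-Hochberg adjusted p = 5.84e-06), with close replicates in every group. Ssr1 read 689 and 1075 on the TAK1-deficient against 4490.1 and 5264 on the wild-type Igκ+ arrays and Ssr3 925 and 1165 on the TAK1-deficient against 4379 and 4971 on the wild-type Igκ+ arrays; they fell by 2.47 and 2.15. After the level adjustment these 3 were the ones of the 8 that still fell, by 1.32, 1.17 and 0.86.

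The channel itself and the signal peptidase had smaller differences on the probe sets that stand for them. Sec61b, a small subunit of the channel, read 1610.4 and 1674 on the TAK1-deficient arrays, 4778 and 4927 on the wild-type Igκ+ arrays and 5534 and 5787 on the wild-type Igλ+ arrays (log2 difference -1.55 ± 0.13), and with the level adjustment its difference was -0.35 (adjusted p = 0.0612). Sec61a1, the channel's pore, fell by 1.53, and the peptidase genes Spcs1, Spcs2 and Sec11c fell too, with differences of -1.77, -1.51 and -1.21. Of these 5 genes, 0 passed with the level adjustment. Other probe sets did not all share this. The other Spcs2 one, brighter in wild-type cells (mean 2722 against 2635), had -2.91, and -1.42 with the level adjustment. A bright Spcs1 one (mean 4225) had -2.78 and -1.47, and a dimmer one (mean 339) -1.43 and -1.44. The other Sec11c probe set had -0.67 and 0.46, and those of Sec61a1 are given below. The probe set that Sec61g shares with 2 other genes read 4735 and 4862 on the TAK1-deficient, 3330 and 3549 on the wild-type Igκ+ and 3771 and 3218 on the wild-type Igλ+ arrays, and its source gene cannot be told.

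Of the 7 sensors and signalling factors 6 fell and Trib3 rose, where 49.8% of all genes fell and 26.1% rose. Eif2ak3, for the sensor PERK, read 421 and 387 on the TAK1-deficient arrays, 1874 and 2094 on the wild-type Igκ+ arrays and 1373 and 1878 on the wild-type Igλ+ arrays (log2 difference -2.25 ± 0.23; limma, Benjamini-Hochberg adjusted p = 4.48e-05). Ern1, for the sensor IRE1, read 133 and 109 on the TAK1-deficient against 334 and 375 on the wild-type Igκ+ arrays and fell by 1.44. These sensors kept their calls with the level adjustment (-0.82 and -1.32), while Atf6, which fell by 1.71, did not (-0.35, adjusted p = 0.289). Atf4, the transcription factor whose translation PERK raises, read 1759 and 1663 on the TAK1-deficient arrays, 4636 and 5359 on the wild-type Igκ+ arrays and 5153 and 5254 on the wild-type Igλ+ arrays; it fell by 1.53 and had -0.32 with the level adjustment (adjusted p = 0.122).

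Ddit3, for the ATF4-induced factor CHOP, read 578 and 868 on the TAK1-deficient arrays, 1133 and 1206 on the wild-type Igκ+ arrays and 1729 and 1641 on the wild-type Igλ+ arrays, an order in which no groups overlapped. Its fall in TAK1-deficient against wild-type Igκ+ cells, -0.71 ± 0.24 (SE; limma, Benjamini-Hochberg adjusted p = 0.0242), was lost when TAK1-deficient replicate 1 was left out (-0.42, adjusted p = 0.166) or either wild-type Igκ+ one (0.0738 and 0.105), and turned to 0.62 with the level adjustment (adjusted p = 0.0548). Trib3, a pseudokinase gene induced by ATF4 and CHOP, was dim. It read 104 and 181 on the TAK1-deficient arrays, 44.2 and 40.6 on the wild-type Igκ+ arrays and 107 and 78.6 on the wild-type Igλ+ arrays; its rise of 1.40 ± 0.36 (adjusted p = 0.00697) was lost without TAK1-deficient replicate 2 (adjusted p = 0.0649). The lower TAK1-deficient array overlapped the wild-type Igλ+ ones. Ppp1r15a, whose product restores translation after PERK signalling, read 180.1 and 489 on the TAK1-deficient against 1079 and 1083 on the wild-type Igκ+ arrays and fell by 1.80, with a wide gap between the TAK1-deficient replicates.

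**Figure D4:**
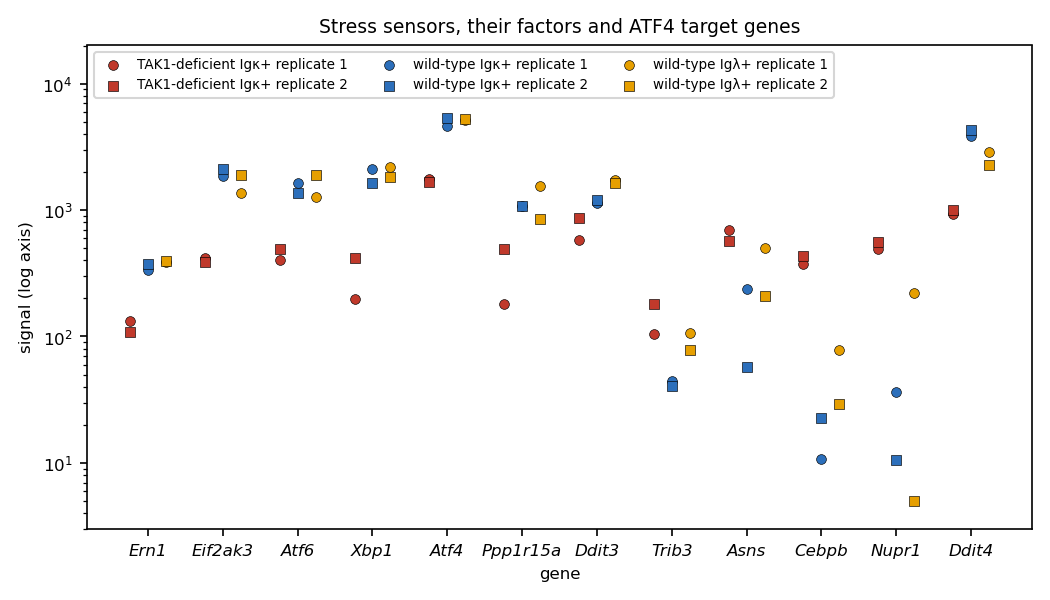
Signals (log axis) of the stress sensors and factors, Xbp1 and ATF4 target genes on each array; colours are the groups and shapes the replicates. The TAK1-deficient points are lowest from Ern1 to Ddit3 and highest for Trib3 replicate 2, Asns, Cebpb and Nupr1.

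Different probe sets of a gene often gave opposite signs, in step with their level. Of 30 genes with at least 2 probe sets, 19 had 1 sign in all of them and 11 did not. In TAK1-deficient against wild-type Igκ+ cells, Pdia3 had -3.33 on the probe set with a wild-type Igκ+ mean of 3519 and 1.84 on the one at 146. Pdia6 had -2.24 at 1665 and 3.06 at 71.2, Edem2 -1.97 at 568 and 4.96 at 12.8, and Ddit3 -0.71 at 1169 and 2.04 at 361. In each, the probe set that was brighter in wild-type cells was lower on the TAK1-deficient arrays.

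The other genes with mixed signs had 3 or more probe sets. Ern1 had -1.44 on its brightest, at 354, and 2.63, 2.89, 4.20 and 2.76 on the others, at 22.8, 6.89, 28.0 and 11.9. Hyou1 had -2.14, -0.42 and 2.40 at 777, 353 and 36.2, Eif2ak3 -2.25, -0.43 and 1.02 at 1984, 107 and 99.1, and Atf4 -1.53, -1.56 and 1.74 at 4997, 3108 and 3.67. Ssr1 had -2.47, 0.65, 0.99 and -0.02 at 4877, 611, 252 and 289. Dim probe sets thus carried most of the positive signs.

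Sel1l had -0.89, -1.33, -0.33, 0.45 and 1.58 at 2688, 761, 327, 126 and 72.8. Sec61a1 had -1.53, -2.15, -1.45, 0.90, 1.50 and 1.02 at 2458, 2328, 895, 412, 65.8 and 38.3. After the level adjustment 13 of the 30 genes had 1 sign and 17 had mixed signs.

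The genes whose promoter held an ERSE are set here beside those whose window did not. All 9 fell, with a median of -1.51, and of the 23 tested genes with a window and no ERSE 21 fell and 2 rose, with a median of -1.54. Once level-adjusted, 3 of the 9 fell and 1 rose (median -0.23), against 9 and 1 of the 23 (median -0.54). Of all genes, 49.8% fell and 26.1% rose as deposited, and 18% and 24.7% once level-adjusted. No test was made of this split.

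Of 77 other genes of the ER pathway tested (87 listed), 62 fell and 6 rose, with a median of -1.61, where 49.8% of all genes fell and 26.1% rose. Xbp1, the transcription factor activated by IRE1, read 199.7 and 415 on the TAK1-deficient arrays, 2103 and 1623 on the wild-type Igκ+ arrays and 2184 and 1827 on the wild-type Igλ+ arrays (log2 difference -2.61 ± 0.33; limma, Benjamini-Hochberg adjusted p = 0.000161; -1.16 with the level adjustment, adjusted p = 0.018); these arrays do not separate its spliced form. The largest falls were those of Atf6b, a relative of Atf6 (-3.46), Sec13, a coat protein of transport vesicles (-2.87), Ssr4, the fourth subunit of the translocon-associated complex (-2.84), and Txndc5, a disulfide isomerase (-2.80). By list, 9 of 9 glycosylation genes fell, 14 of 15 folding genes, 13 of 15 translocation genes, 10 of 12 genes of transport to the Golgi, 7 of 10 degradation genes and 6 of 7 signalling genes. Once level-adjusted, 25 of the 77 fell and 9 rose, against 18% and 24.7% of all genes, and 3 of the 9 (Phgdh, Psat1 and Sec63) were among the 6 that rose as deposited.

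Of genes known as ATF4 targets, 5 of 9 tested rose and 3 fell as deposited, where 26.1% and 49.8% of all genes did. The wild-type means of Cebpb and Nupr1 lay below the cutoff for testing, which was set with the TAK1-deficient arrays included. Dim probe sets as a whole were higher on the TAK1-deficient arrays, so the count is no support. Nupr1, a stress-induced nuclear protein, read 488 and 554 on the TAK1-deficient arrays, 36.7 and 10.6 on the wild-type Igκ+ arrays and 219 and 4.96 on the wild-type Igλ+ arrays (log2 difference 3.84 ± 0.95). Cebpb, a transcription factor, read 373 and 429 on the TAK1-deficient arrays, 10.8 and 22.5 on the wild-type Igκ+ arrays and 78 and 29.4 on the wild-type Igλ+ arrays (3.70 ± 0.42), and Asns, asparagine synthetase, 699 and 564 on the TAK1-deficient arrays, 237 and 57.6 on the wild-type Igκ+ arrays and 503 and 211 on the wild-type Igλ+ arrays (2.24 ± 0.62). All 3 were highest on the TAK1-deficient arrays and variable on the wild-type ones.

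The other 2 that rose were Phgdh and Psat1, enzymes of serine synthesis, which were bright in every group. Phgdh read 4137 and 3547 on the TAK1-deficient arrays, 2651 and 2798 on the wild-type Igκ+ arrays and 3189 and 2395 on the wild-type Igλ+ arrays (log2 difference 0.49 ± 0.18), and Psat1 read 2751 and 2933 on the TAK1-deficient arrays, 2356 and 1813 on the wild-type Igκ+ arrays and 2049 and 2019 on the wild-type Igλ+ arrays (0.46 ± 0.18). In both the TAK1-deficient arrays were the highest, by a small margin. With the level adjustment these 2 still rose, by 1.97 and 1.93 (adjusted p = 0.000231 and 0.000184), while Asns, Cebpb and Nupr1 had 1.58, 1.10 and 1.38 and did not pass (adjusted p = 0.0731, 0.0599 and 0.269). Median centring and spike-in scaling turned the sign of Phgdh (-1.89 and -2.95), Psat1 (-1.93 and -2.97) and Asns (-0.14 and -0.98), whereas Cebpb and Nupr1 stayed positive under all 5 scalings. The sixth rise among the 77 was that of Sec63, a translocation gene (0.63), which likewise turned negative with both. Without wild-type Igκ+ replicate 2 only Cebpb of the 6 still passed as a rise. Ddit4, another gene of that list, read 925 and 1003 on the TAK1-deficient arrays, 3820.1 and 4315 on the wild-type Igκ+ arrays and 2874 and 2263 on the wild-type Igλ+ arrays and fell by 2.06.

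Markers of other cells differed between the groups as well. The summed signal of 9 plasma cell markers was 6443 and 7724 on the TAK1-deficient, 33036 and 26131 on the wild-type Igκ+ and 23126 and 13585 on the wild-type Igλ+ arrays. Jchain, the joining chain of secreted antibody, read 526 and 538 on the TAK1-deficient arrays, 9837 and 4130.3 on the wild-type Igκ+ arrays and 4147 and 117 on the wild-type Igλ+ arrays. Igha, the heavy chain of IgA, read 205 and 262 on the TAK1-deficient arrays, 10263 and 7531 on the wild-type Igκ+ arrays and 8055 and 348 on the wild-type Igλ+ arrays. As deposited, 5 of the 9 fell (Jchain, Igha, Sdc1, Irf4 and Mzb1), 2 rose and 2 did not pass (Derl3 and Fkbp11), so the sum follows its brightest genes. Of all genes, 49.8% fell and 26.1% rose. With the level adjustment 2 of the 9 fell (Igha, -3.79, and Mzb1, -1.21) and 0 rose, against 18% and 24.7% of all genes. The median was then 0.03, and Jchain did not pass (-2.06; limma, Benjamini-Hochberg adjusted p = 0.224). Prdm1, the transcription factor of plasma cell differentiation, read 391 and 759 on the TAK1-deficient arrays, 219 and 107 on the wild-type Igκ+ arrays and 71.7 and 90.5 on the wild-type Igλ+ arrays (log2 difference 1.72 ± 0.46; limma, Benjamini-Hochberg adjusted p = 0.00853). Tnfrsf17, for the receptor BCMA, read 567 and 483 on the TAK1-deficient arrays, 227 and 35.2 on the wild-type Igκ+ arrays and 35.2 and 12.9 on the wild-type Igλ+ arrays (2.27 ± 0.67, adjusted p = 0.0138). The wild-type mean of Tnfrsf17 lay below the cutoff for testing, which was set with the TAK1-deficient arrays included. Both rises turned negative with median centring and spike-in scaling and did not pass with the level adjustment (0.37 and 0.10). Mzb1, Derl3 and Fkbp11 are also among the other ER pathway genes above, so these lists overlap. Plasma cells hold much ER, and the part of these markers in the falls of ER genes was not tested.

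The sums of other lists, with TAK1-deficient arrays first and the range of the wild-type arrays second, were 3399 and 3977 against 63.9 to 255 for 6 T cell markers, and 4811 and 4465 against 974 to 1256 for 6 stromal and endothelial markers. For 9 granulocyte markers they were 8130 and 8715 against 316 to 37296, for 6 monocyte markers 2336 and 2520 against 345 to 9445, and for 4 NK cell markers 1095 and 1095 against 950 to 2863. For 3 erythroid markers they were 484 and 292 against 36.8 to 1218, for 4 megakaryocyte markers 665 and 374 against 83.7 to 4748, for 6 pro-B and pre-B markers 3852 and 3561 against 1648 to 6160, and for 7 B cell markers 56993 and 64126 against 44606 to 47507. T cell, stromal and B cell sums were thus higher on both TAK1-deficient arrays than on any wild-type array, as deposited. Of the 7 B cell markers, 3 rose on the TAK1-deficient arrays (Ms4a1, Cd79b and Ebf1), 2 fell (Cd79a and Blnk) and 2 did not pass. Among all genes tested, 26.1% rose and 49.8% fell on those arrays. The rises of Ms4a1, Cd79b and Ebf1 became falls with median centring (-1.15, -1.75 and -1.72) and spike-in scaling (-2.23, -2.82 and -2.79). Quantile normalization gave -0.08, -0.37 and 0.63. With the level adjustment 4 of the 7 rose (these 3 and Cd22) and 0 fell, against 24.7% and 18% of all genes. Most of the T cell sum on those arrays was Bcl11b, a T lineage transcription factor, which read 2431 and 2313 on the TAK1-deficient arrays, 16 and 5.07 on the wild-type Igκ+ arrays and 18.9 and 14.6 on the wild-type Igλ+ arrays. In the stromal and endothelial list 4 of 5 tested rose, while Pecam1, an adhesion molecule that made up most of the wild-type sum, read 522 and 381 on the TAK1-deficient arrays, 982 and 1060.0 on the wild-type Igκ+ arrays and 685 and 882 on the wild-type Igλ+ arrays and fell by 1.17. Apart from Pecam1 the markers of the T cell and stromal lists had mean wild-type signals below 100, where 96.9% of all probe sets were higher on the TAK1-deficient arrays. With the level adjustment Bcl11b (3.43), Dcn (2.33) and Col1a2 (2.54) still rose (limma, Benjamini-Hochberg adjusted p = 0.000239, 0.00142 and 0.0143). These genes were positive under all 5 scalings. Cd8a, Cd28, Col1a1 and Cdh5, which rose as deposited, did not pass with the level adjustment. Of the tested T cell and stromal markers, all but Pecam1 had a wild-type mean below the cutoff for testing. That cutoff was set with the TAK1-deficient arrays included, so the rises counted in these lists are no support.

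The second comparison asked whether the same genes differ between wild-type Igλ+ and Igκ+ cells. None of the 39 passed (limma, Benjamini-Hochberg adjusted p under 0.05; 0% of all genes did), and 1, Trib3, had an unadjusted p under 0.05, against 2.04% of all genes. The median difference was 0.092, against 0.041 for all genes, and 26 of 39 were positive. Changes had to be large to be called at this size: in simulated data 16% of genes changed by 1 log2 unit and 68% of those changed by 2 were recovered in this comparison.

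The genes varied little among the wild-type arrays. The SD of log2 signal over the 4 arrays had a median of 0.18 for the 39 genes and 0.24 for all genes (10th to 90th percentile 0.10 to 0.56). These medians were not matched for signal level. The highest of the 4 signals was 1.06 times the lowest for Sec11c, 2.63 times for Trib3, and 1.31 times in the median. Over the same arrays Jchain spanned a range of 84.2 times and Igha 29.5 times, both lowest on wild-type Igλ+ replicate 2. On that array the median of the 39 genes stood 0.06 above their wild-type mean on the log2 scale, and on the others at -0.05, -0.04 and 0.03.

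Trib3 and Ddit3, neighbours in the ATF4 branch, had the smallest p-values. Trib3 read 44.2 and 40.6 on the wild-type Igκ+ and 107 and 78.6 on the wild-type Igλ+ arrays, with a difference of 0.88 ± 0.36 (SE; limma, unadjusted p = 0.0384). Ddit3 read 1133 and 1206 on the wild-type Igκ+ and 1729 and 1641 on the wild-type Igλ+ arrays, with 0.52 ± 0.24 (limma, unadjusted p = 0.0591). In both, each Igλ+ array was above each Igκ+ array. Asns, Cebpb and Nupr1 had differences of 1.33 ± 0.62, 1.02 ± 0.42 and 0.91 ± 0.95 (limma, unadjusted p = 0.063, 0.0391 and 0.367), while Ddit4 had -0.67 ± 0.18 (unadjusted p = 0.00599). Igλ+ replicate 1, the highest of the 4 for Trib3, Asns, Cebpb and Nupr1, also had the highest granulocyte sum, 37296 against 5255, 316 and 329, whose part in these values was not tested.

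Genes of degradation, translocation and disulfide formation were also among the 12 with the smallest p-values. Derl1 read 3288 and 2179.9 on the wild-type Igκ+ and 3433 and 3738 on the wild-type Igλ+ arrays (0.42 ± 0.25), Sec61b 4778 and 4927 on the wild-type Igκ+ and 5534 and 5787 on the wild-type Igλ+ arrays (0.22 ± 0.13), and Ero1b 4836 and 4472 on the wild-type Igκ+ and 5196 and 5617 on the wild-type Igλ+ arrays (0.22 ± 0.14). In these 3 the Igλ+ arrays were both higher. Ssr1 went the other way, with 4490.1 and 5264 on the wild-type Igκ+ and 3679 and 4063 on the wild-type Igλ+ arrays (-0.33 ± 0.22), as did Spcs1, with 4384 and 5193 on the wild-type Igκ+ and 4032 and 3935 on the wild-type Igλ+ arrays (-0.26 ± 0.24), and in both the groups did not overlap.

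In the rest of the 12 the groups overlapped in 3 genes. Eif2ak3 read 1874 and 2094 on the wild-type Igκ+ and 1373 and 1878 on the wild-type Igλ+ arrays (-0.30 ± 0.23), Hsp90b1 5573 and 3879 on the wild-type Igκ+ and 5484 and 5568 on the wild-type Igλ+ arrays (0.25 ± 0.21) and Pdia4 173 and 284 on the wild-type Igκ+ and 157 and 176 on the wild-type Igλ+ arrays (-0.39 ± 0.37). Selenos read 3559 and 3419.6 on the wild-type Igκ+ and 4083 and 3779.6 on the wild-type Igλ+ arrays (0.17 ± 0.15) and Pdia6 1593 and 1736 on the wild-type Igκ+ and 1940.0 and 1918 on the wild-type Igλ+ arrays (0.21 ± 0.21), both without overlap. Hspa5, the gene of BiP, had -0.02 ± 0.23, and Xbp1 0.11 ± 0.33.

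By non-overlap, 13 of the 39 genes were higher on both Igλ+ arrays and 3 lower (Ssr1, Ssr3 and Spcs1), where 13.5% of all genes were higher and 9.24% lower. The 13 were Pdia6, P4hb, Ero1b, Calr, Canx, Derl1, Selenos, Sec61b, Ssr2, Sec11c, Ern1, Ddit3 and Trib3. That direction held with quantile normalization (11 higher and 4 lower; 11.4% and 10.2% of all genes) but not with median centring (4 and 6; 6.26% and 20.9%) or spike-in scaling (2 and 14; 5.7% and 29.6%). Of the other 77 pathway genes, 5 were higher and 8 lower without overlap as deposited.

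**Figure D5:**
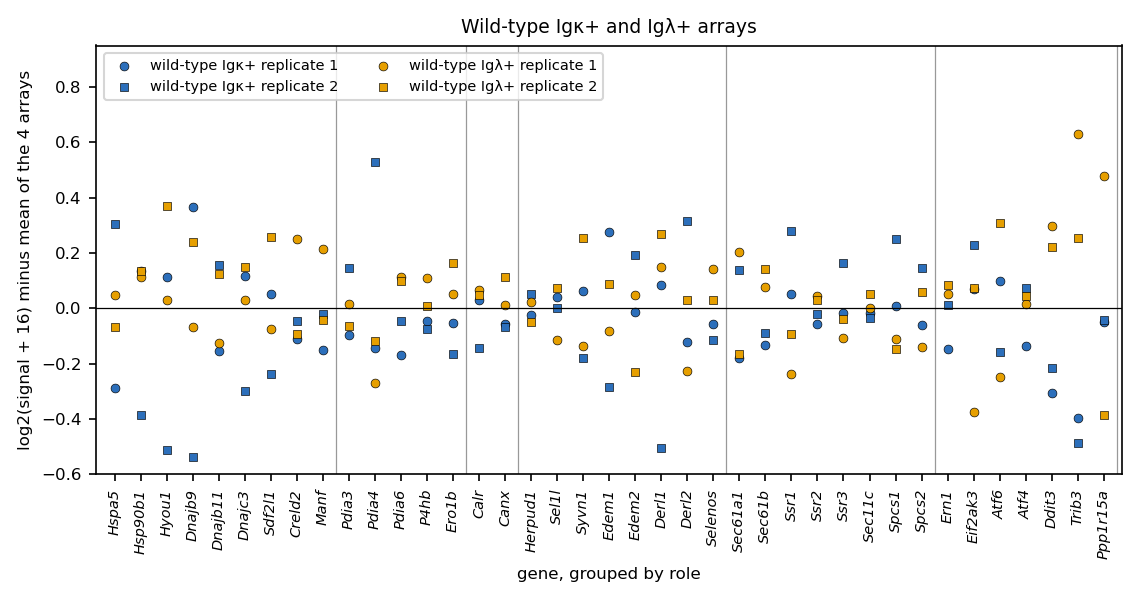
Log2(signal + 16) of the 39 genes on each wild-type array minus the mean of the 4, grouped by role; blue is Igκ+ and orange Igλ+, with shapes for replicates. Most points lie close to 0, and Trib3 and Ddit3 are the genes with both orange points clearly above both blue ones.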

How the data were processed

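RNA of 6 samples was hybridised to Affymetrix arrays. The deposited values are probe set signals, intensities on a linear scale, which the authors produced using MAS5 (per the submitters' processing notes), in a version not given in the sources used here. On every array the deposited intensities have a 2% trimmed mean of 500, so each carries 1 scaling factor and array distributions were not matched. Arrays give no read depth, and their number limits the precision.

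The 40 genes, their roles, the 7 lists of 87 other pathway genes, the 10 marker lists and the tests were chosen with earlier results of these data known, and nothing here is independent support for what those results showed. Probe sets were named from the platform annotation, where 34945 carried 1 gene; each gene was represented by its probe set of highest mean log2 signal. A gene was tested where that mean exceeded the 40th percentile over the whole array. Signals were compared as log2(signal + 16) with limma 3.58.1 (R 4.3.3): group means fitted by lmFit to the 6 arrays together, 3 residual degrees of freedom, eBayes with a trend, two-sided, Benjamini-Hochberg adjustment over 11696 genes, threshold 0.05. The level adjustment used a lowess span of 0.2. TAK1-deficient Igκ+ and wild-type Igλ+ cells, which differ in genotype and light chain together, were not compared. Array values were given for the 12 genes with the largest passing differences or, where none passed, the smallest unadjusted p, and for a set of role markers; genes with probe sets of opposite sign were given with all of them.

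On simulated data with 200 changed genes among 11696, changes of 1, 2, 3 and 4 log2 units were recovered in 20%, 50%, 82% and 96% of genes between the genotypes (3 false calls), and in 16%, 68%, 88% and 94% between the light chains (4 false calls). In the real genotype comparison 49.8% of all genes fell and 26.1% rose. The simulated figures for the genotypes therefore do not describe recovery or false calls in that comparison. Alternatives were pseudocounts of 1 and 64, other filters, 4 scalings, all probe sets taken singly, no trend in eBayes, a fit of the 4 compared arrays alone, a block for the title number, and omission of each array. Promoter windows come from RefSeq (GRCm38.p6); the arrays' own probe positions were not used. Figures were drawn with matplotlib 3.10.9.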

Additional observations from a re-analysis of the deposited data

How the results depend on the processing

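The number of arrays, 2 per group, and the control signals of the TAK1-deficient arrays limit these results. Between the genotypes, single-gene calls stayed on the same side of the threshold with the same direction in 688 of 740 fits of a gene under an alternative; 36 lost the threshold and 16 reversed. The cause of each change was not tested.

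Genes called higher (2 as reported) were 1 with a filter at the 60th percentile, 0 with spike-in scaling, median centring or quantile normalization, 13 of 88 with every probe set as a feature, 1 with the replicate block, and 0 to 2 with 1 array left out. Genes called lower (37) were 14 with the level adjustment, 62 of 88 probe sets, and 34 to 37 with 1 array left out. Other pathway genes called higher (6) were 12 with no filter, 1 with median centring, 0 with spike-in scaling, 26 of 155 probe sets, and 1 to 6 with 1 array left out; those called lower (62) were 25 with the level adjustment, 97 of 155 probe sets and 57 to 61 with 1 array left out. The median difference (-1.55) was -1.77 with the filter on wild-type arrays, -4.95 with spike-in scaling, -3.93 with median centring, -1.38 with quantile normalization, -0.39 with the level adjustment, -1.37 over every probe set, and -1.69 to -1.53 with 1 array left out.

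Signs reversed with the level adjustment for Hspa5 (0.24), Dnajb9 (0.30), Dnajb11 (0.24), Ero1b (0.78), Sel1l (0.60), Syvn1 (0.49), Edem1 (0.15), Ddit3 (0.62) and Trib3 (-0.54). They reversed with quantile normalization for Pdia4 (-0.33), Ero1b (0.19) and Trib3 (-1.12), with median centring for Pdia4 (-1.44) and Trib3 (-0.98), and with spike-in scaling for Pdia4 (-2.29) and Trib3 (-1.33).

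For wild-type Igλ+ against Igκ+ cells, 0 genes passed in any alternative. The median difference (0.092) was 0.114 with the filter on wild-type arrays, -0.058 with median centring, -0.093 with spike-in scaling, 0.033 over every probe set and 0.048 to 0.107 with 1 array left out. Genes whose groups did not overlap (13 higher, 3 lower) were 4 and 6 with median centring and 2 and 14 with spike-in scaling, settings chosen for this count after seeing the data.

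The title numbers were not shown to pair the samples: deviations of same-numbered arrays correlated at 0.012, 0.026 and 0.222. With the replicate block 1 gene was called higher and 37 lower for the genotypes, and 0 between the light chains.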
